A study of Mus musculus with 18 samples.

Results

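The genes described here encode the core proteins of the splicing machinery and the RNA-binding proteins that direct it. They were taken from the deposited expression table of the mouse hippocampus by their symbols (Snrp, Srsf, Sf3a, Sf3b, Hnrnp and U2af). The rule itself uses no values, but it was chosen with earlier results of these data known. Of 15329 listed genes, 55 met this rule: 20 hnRNP proteins, 12 snRNP proteins, 11 SR proteins, 9 subunits of the SF3 complex and 3 U2AF proteins. All 55 had reads in all 18 libraries, the lowest value being 37 reads, and all 55 were tested.

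The study compared wild-type (WT) mice with *Ccny* knockout (KO) mice in the strain C57BL/6J at 8 to 10 weeks of age. Mice of both genotypes stayed untrained (WT_Basal and KO_Basal), were trained in the Morris water maze to find a hidden platform (groups WT_OL and KO_OL, original learning) or learned it and then a new position (WT_RL and KO_RL, with reversal learning added). The hippocampus of 3 mice per group was sequenced, 1 library per mouse, from poly-A selected RNA. How the knockout allele was made is not given in the sources used here, and no group swam without learning, so swimming, handling and learning cannot be told apart.

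Splicing removes introns from a transcript on the spliceosome, which is built anew on each intron from small nuclear RNAs held in rings of Sm proteins. The U2AF proteins and the SF3a and SF3b subunits of the U2 particle mark the 3′ end of the intron and its branch point, SR proteins bind exons and mostly favour their use, and hnRNP proteins coat the transcript and often oppose it. In neurons these proteins set the exon choice of many synaptic transcripts, and many of them control the splicing of their own RNA. The values here are summed over each gene, so they report how much RNA a splicing factor gene gave and not which exons were used.

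Values are given as CPM, reads scaled to the size of the library, and differences as log2 of CPM + 1, the scale of the table. The members were abundant, with a median of 81.9 CPM over the 18 libraries against 22.5 CPM for all genes. Per kilobase of transcript, *Hnrnpa2b1* was the highest hnRNP gene with 244 CPM per kb and *Hnrnpa1* the lowest with 1.11. Among the SR genes the levels ran from 111 CPM per kb for *Srsf5* to 7.30 for *Srsf12*, and among the SF3 genes from 79.0 for *Sf3b2* to 7.34 for *Sf3b5*. The length used is that of the longest coding transcript, which for *Sf3b5* has 3841 bases, 261 of them coding. Before division by length *Sf3b5* was not the lowest SF3 gene, with 28.2 CPM against 26.6 CPM for *Sf3a2*. *Snrpb* led the snRNP genes with 63.1 CPM per kb, and *Snrpn*, which encodes a Sm protein of neurons, was the lowest with 1.48. The exons of *Snrpn* overlap those of *Snurf* and *Gm38393* on the same strand, and 16.1% of its 100-base windows occur in *Gm38393*, so that level is uncertain. *U2af2*, the large U2AF subunit, stood at 62.4 CPM per kb and *U2af1l4*, a relative of the small subunit, at 32.1.

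The libraries held 29248557 to 37915576 reads on listed genes. *Ccny* lay between 106.6 and 158 CPM in the 9 WT libraries and between 74.0 and 95.8 CPM in the 9 KO libraries, without overlap. In untrained mice it was at 158, 149.6 and 158 CPM in WT_Basal and at 95.8, 90.5 and 89.6 CPM in KO_Basal, so *Ccny* reads were fewer but remained in the libraries labelled KO, and these counts do not measure the protein. All 8 markers of hippocampal neurons that were checked had reads in every library, and their sum was 487 to 928 CPM. WT_OL replicate 2 stood apart, since it held the lowest value of 20 of the 55 members and the highest of 7, and KO_Basal replicate 3 held the highest value of 21. Bulk tissue was measured, so fewer cells of a type and less RNA per cell cannot be told apart.

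Training was followed by lower RNA of many splicing factor genes in both genotypes. Against untrained mice of the same genotype, 21 of 55 members fell and 0 rose in WT_OL, 23 fell and 7 rose in KO_OL, 15 fell and 7 rose in WT_RL, and 19 fell and 5 rose in KO_RL. Falls were found among the hnRNP, SR, snRNP and U2AF genes, and rises mainly among the SF3 genes. Of all genes tested, 9.5% were called in WT_OL (5.62% lower, 3.88% higher), 23.5% in KO_OL (12.3% and 11.2%), 15.7% in WT_RL (7.42% and 8.28%) and 23.6% in KO_RL (12% and 11.6%). The shares of members that fell were 38.2% for WT_OL, 41.8% for KO_OL, 27.3% for WT_RL and 34.5% for KO_RL. The members' median change on the log2 scale was −0.20 for WT mice and −0.18 for KO mice after original learning and −0.13 and −0.16 after reversal learning, while the median over all genes was between −0.01 and 0.00. Calls are from limma at a Benjamini-Hochberg adjusted p under 0.05 over all 15329 genes. In the order WT_OL, KO_OL, WT_RL and KO_RL, 2, 5, 3 and 3 members passed 1.5-fold at an unadjusted p under 0.05 in limma, where 1.8%, 5.46%, 2.99% and 5.23% of all genes did. When the WT_OL and WT_Basal groups were fitted alone, 0 members and 74 of all genes were called by limma. With 1 library left out, the count of called members fell to 12 for WT_OL, without WT_Basal replicate 3. For WT_RL it fell to 10 without WT_Basal replicate 1, to 12 without WT_Basal replicate 3 and to 13 without WT_RL replicate 2. The shares of all genes called with a library left out are not given here, so these counts describe the members alone.

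The next counts take in all 55 members, the called ones included. In WT_OL 41 of 55 members lay below their untrained mean (50.1% of all genes did), in KO_OL 40 (51.1%), in WT_RL 37 (49.8%) and in KO_RL 40 (50.5%). All 3 trained mice were below all 3 untrained mice for 27 members and above them for 4 in WT_OL, with 15.2% and 13.1% over all genes. The same counts were 31 and 11 in KO_OL (24.6% and 24.2% of all genes), 23 and 10 in WT_RL (16.7% and 17.6%) and 29 and 9 in KO_RL (22.6% and 22.7%). An unadjusted p under 0.05 in limma was reached by 30, 35, 31 and 32 members in these groups, and by 25.9%, 36.6%, 30.3% and 36.6% of all genes.

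Of the 55 members, 37 were called in at least 1 of the 11 comparisons made, as were 34.6% of all genes. The 18 members called in none were *Hnrnpa3*, *Hnrnpab*, *Hnrnpf*, *Hnrnpl*, *Hnrnpm*, *Hnrnpu*, *Hnrnpul2*, *Sf3a3*, *Sf3b1*, *Sf3b5*, *Snrpa1*, *Snrpb*, *Snrpc*, *Snrpd2*, *Snrpg*, *Snrpn*, *Srsf9* and *U2af2*.

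**Figure D1:**
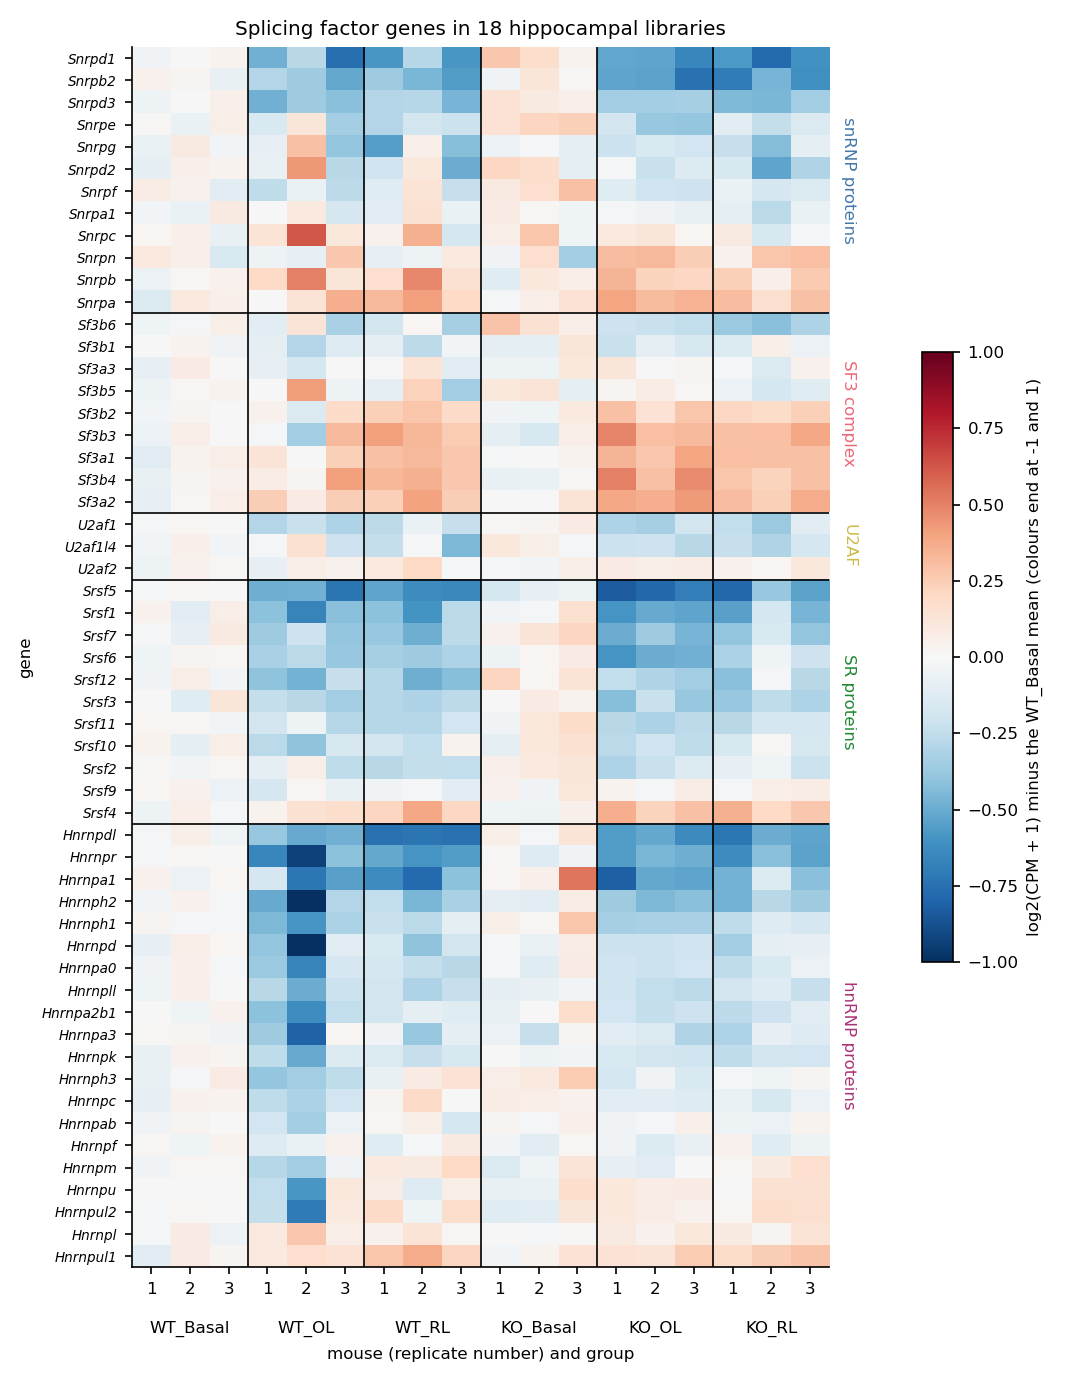
Each cell shows log2(CPM + 1) of 1 gene (vertical axis, grouped by family) in 1 mouse (horizontal axis, 3 mice in each of 6 groups) minus the mean of the 3 WT_Basal mice, blue for lower and red for higher. Most SR and hnRNP genes are blue in the trained groups, SF3 genes such as *Sf3a1* and *Sf3b4* are red in KO_OL, WT_RL and KO_RL, and WT_OL replicate 2 holds the deepest blue of many hnRNP genes.

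Members of low GC content fell more often, and so did all genes of low GC content. The members' transcripts had a median GC content of 45.5% against 50.2% for all genes, and 28 of 55 members were in the lowest quartile of all genes by GC (31.0% to 45.5%). A slope of expression on GC content, in log2 units per 10 percentage points relative to the mean library, ran from −0.18 to −0.12 over the 6 untrained libraries and from 0.01 to 0.14 over the 12 trained libraries, with no overlap. In that quartile 18.9% of all genes fell in WT_OL, 22.1% in WT_RL, 32.4% in KO_OL and 29.3% in KO_RL. Of the 28 members in it, 17, 12, 18 and 15 fell in the same order, which is 60.7%, 42.9%, 64.3% and 53.6%. The median change of these 28 members was −0.33, −0.23, −0.37 and −0.30, and that of all genes in the quartile −0.20, −0.18, −0.20 and −0.17. Whether the GC slope differs between mice or between library preparations cannot be told apart, since it moves with training in every library.

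When each library was corrected for GC content with a smooth curve, part of the calls was lost. Called members numbered 7 for WT_OL (0 higher, 7 lower), 20 for KO_OL (6 higher, 14 lower), 10 for WT_RL (1 higher, 9 lower) and 18 for KO_RL (3 higher, 15 lower). Over the 15224 genes with a known GC content, the correction left 2.23%, 15.3%, 7.38% and 17.8% of genes called, in the same order. Of the calls in the deposited values, 7 of 21, 18 of 30, 8 of 22 and 16 of 24 were kept. The 7 kept in WT_OL were *Hnrnpr*, *Srsf5*, *Hnrnpdl*, *Hnrnph1*, *Snrpd3*, *Hnrnpa0* and *U2af1*.

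**Figure D2:**
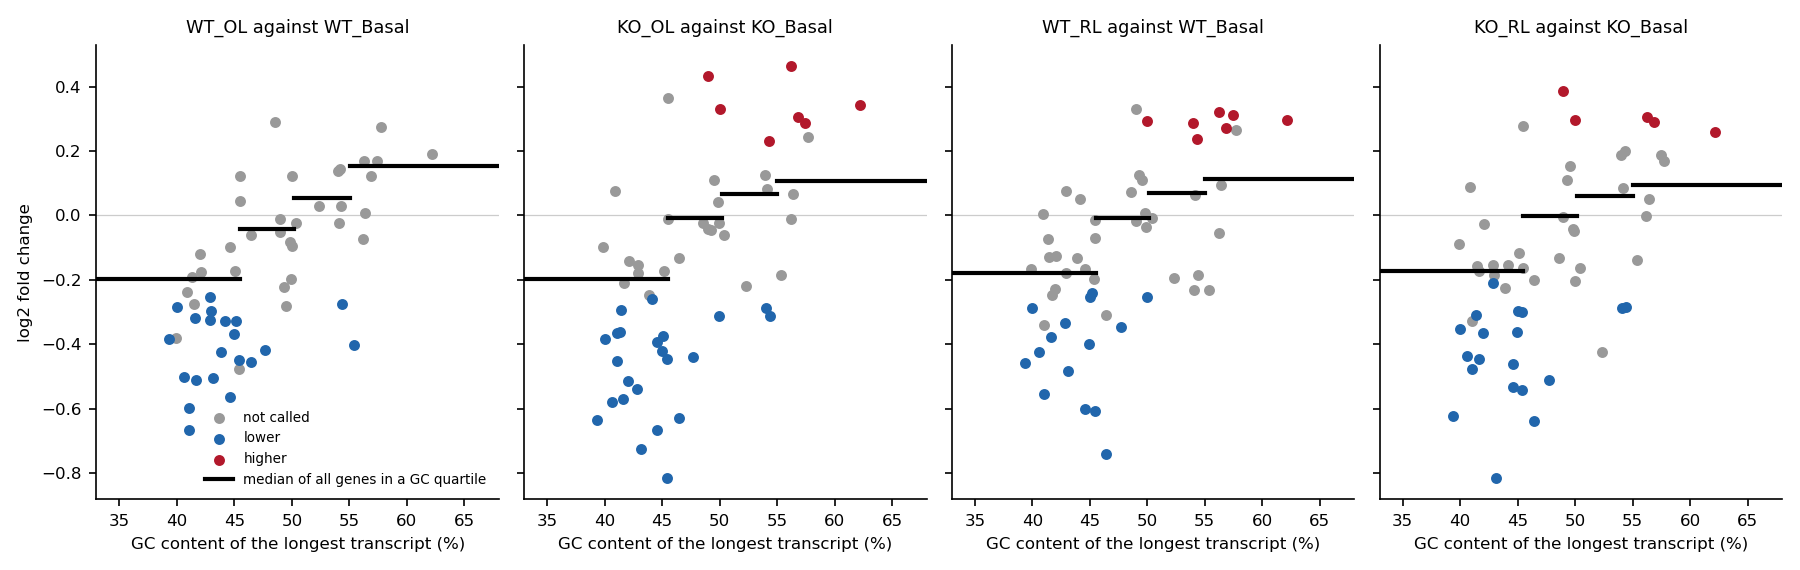
Each panel plots the log2 fold change of the 55 members (vertical axis) against the GC content of their longest transcript in percent (horizontal axis) for 1 trained group against untrained mice of its genotype. Points are blue where the member was called lower, red where higher and grey where not called, and black lines give the median of all genes in each GC quartile; blue points cluster at low GC, mostly below the black line, and red points lie from the middle of the GC range upwards.

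**Figure D3:**
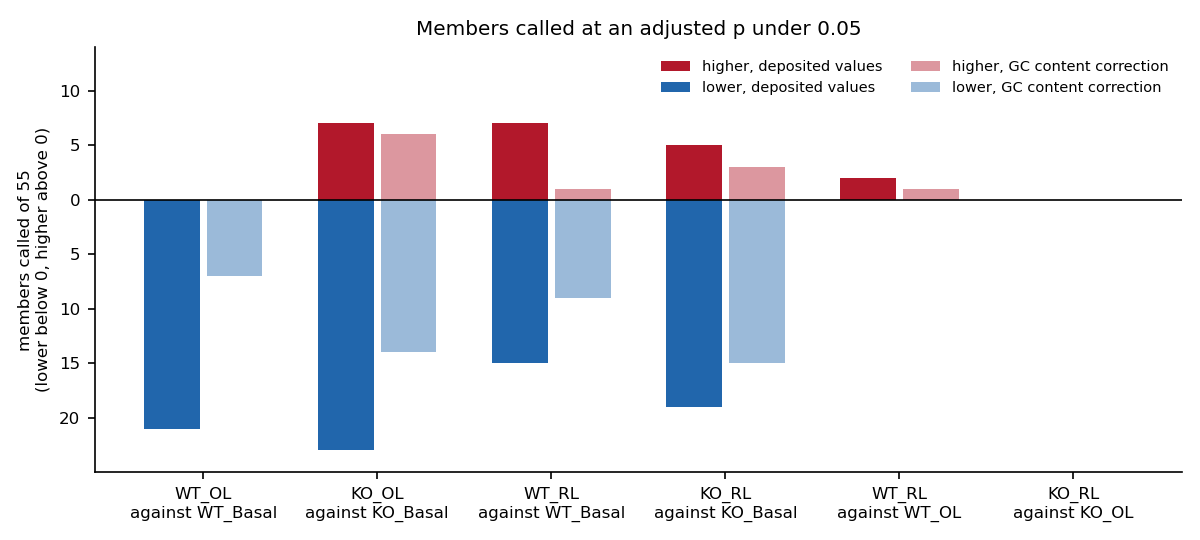
Bars count the members called higher (red, above 0) and lower (blue, below 0) of 55 in 6 comparisons, in full colour for the deposited values and in pale colour after the GC content correction. The number called lower goes from 21 to 7 in WT_OL and from 23 to 14 in KO_OL.

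Among the 20 hnRNP genes, 11 fell in WT_OL and 4 in WT_RL, and in KO mice 6 fell in KO_OL and 4 in KO_RL. The only rise was that of *Hnrnpul1* in WT_RL, by 0.29 ± 0.07 (log2 fold change ± SE, adjusted p = 0.00997, limma with Benjamini-Hochberg adjustment), a call lost after the GC correction (limma adjusted p = 0.0576). *Hnrnpr*, which binds messenger RNA in the nucleus and in axons, showed the largest fall of any member in WT_OL. It stood at 141, 145 and 143 CPM in WT_Basal and at 90.6, 74.3 and 107 CPM in WT_OL. All 3 trained mice were below all 3 untrained mice, with the lowest value in WT_OL replicate 2, and the log2 fold change was −0.67 ± 0.10 (SE, limma adjusted p = 0.000955). *Hnrnpr* also had 99.9, 94.6 and 96.7 CPM in WT_RL, a fall of 0.56 ± 0.10 (limma adjusted p = 0.00166). In KO mice it went from 144, 131 and 140 CPM to 96.5, 104 and 102 CPM in KO_OL and to 92.1, 107 and 98.5 CPM in KO_RL. Those differences of −0.45 and −0.48 (both SE 0.10) were called in limma with adjusted p of 0.00359 and 0.00258, although the KO_OL call was lost after the GC correction (adjusted p = 0.0873, limma).

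*Hnrnpdl*, which encodes a close relative of hnRNP D, fell in every trained group. It was at 205, 216 and 202 CPM in WT_Basal, 159, 146 and 149 CPM in WT_OL and 123, 125 and 123 CPM in WT_RL. The KO mice had 216, 205 and 228 CPM untrained, 141, 145 and 133 CPM in KO_OL and 126, 147 and 144 CPM in KO_RL. No trained mouse reached the lowest untrained mouse of its genotype. The log2 fold changes were −0.45, −0.63, −0.74 and −0.64 (SE 0.07 each) in WT_OL, KO_OL, WT_RL and KO_RL, with limma adjusted p of 0.00116, 2.78e-05, 1.89e-05 and 2.55e-05. After the GC correction they were −0.38, −0.58, −0.69 and −0.59 and all 4 remained called.

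*Hnrnph2* and *Hnrnpd* were the other hnRNP genes among the 4 largest falls in WT_OL, and WT_OL replicate 2 was far below its group in both. *Hnrnph2*, a binder of G-rich RNA, had 179, 188 and 181 CPM in WT_Basal and 129, 90.6 and 149 CPM in WT_OL. *Hnrnpd*, also known as AUF1 for its binding of AU-rich elements, had 162, 181 and 174 CPM in WT_Basal and 131, 83.9 and 159 CPM in WT_OL. The groups did not overlap in either gene, but *Hnrnpd* of WT_OL replicate 3 lay just under the lowest untrained mouse. The falls were 0.60 ± 0.13 for *Hnrnph2* and 0.51 ± 0.16 for *Hnrnpd* (log2 ± SE), with adjusted p of 0.00804 and 0.0491 in limma. Neither was called after the GC correction (limma adjusted p = 0.0852 and 0.285), and the *Hnrnpd* call was kept under only 6 of 17 other settings. *Hnrnph1*, the paralog of *Hnrnph2*, fell by 0.45 ± 0.08 in WT_OL, 0.44 ± 0.08 in KO_OL and 0.30 ± 0.08 in KO_RL (limma adjusted p = 0.003, 0.00107 and 0.0129), all 3 also called after the GC correction.

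*Hnrnpa1*, the classic antagonist of SR proteins, showed the largest fall of any member in KO_OL, at a very low level. It was at 2.80, 2.88 and 4.43 CPM in KO_Basal and at 1.13, 1.64 and 1.60 CPM in KO_OL. KO_Basal replicate 3 was the highest, and the groups did not overlap. The log2 fold change was −0.82 ± 0.16 (limma adjusted p = 0.00235), −0.54 ± 0.16 in KO_RL (limma adjusted p = 0.0259) and −0.61 ± 0.16 in WT_RL (limma adjusted p = 0.0209). *Hnrnpa1* was at 1.70, 2.41 and 1.81 CPM in KO_RL. In WT mice it went from 2.86, 2.60 and 2.80 CPM in WT_Basal to 1.43, 1.19 and 1.82 CPM in WT_RL. Of the 100-base windows of its longest transcript, 42.2% occur exactly in another annotated gene, so the level and the change of Hnrnpa1 are uncertain.

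**Figure D4:**
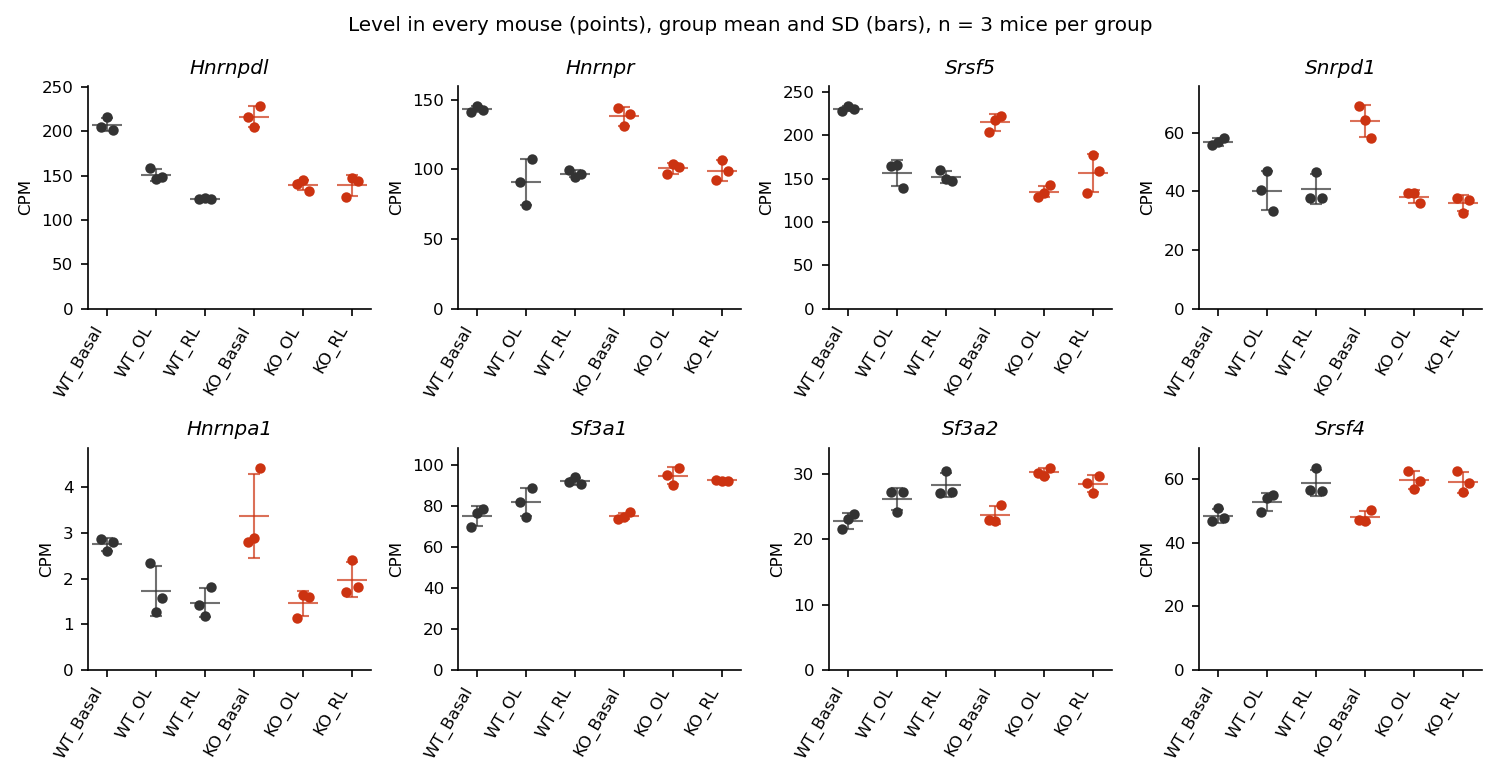
Each panel shows CPM (vertical axis, from 0) of 1 gene in each of the 3 mice (points) of 6 groups, black for WT and red for KO, with the group mean and SD as bars. *Hnrnpdl, Hnrnpr*, *Srsf5* and *Snrpd1* are lower in all 4 trained groups than in untrained mice, *Hnrnpa1* is lower at 1 to 3 CPM, and *Sf3a1*, *Sf3a2* and *Srsf4* are higher in KO_OL, WT_RL and KO_RL.

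Many SR protein genes fell in every trained group in the deposited values. Of 11, 6 fell in WT_OL and 8 in WT_RL, both with a median change of −0.29. In KO mice 9 fell in KO_OL and 7 in KO_RL, with medians of −0.38 and −0.30. After the GC correction *Srsf5* alone of these falls stayed called in WT_OL, and *Srsf2*, *Srsf5* and *Srsf12* did in WT_RL. The falls of *Srsf3* and *Srsf10* were lost in KO_OL, and only those of *Srsf5*, *Srsf7* and *Srsf12* were kept in KO_RL. *Srsf4* was the one SR gene that rose. *Srsf5* showed the largest fall, from 228, 233 and 231 CPM in WT_Basal to 164, 165 and 139 CPM in WT_OL and 160, 149 and 147 CPM in WT_RL. In KO mice it went from 204, 218 and 222 CPM to 129, 133 and 142 CPM in KO_OL and 133, 177 and 159 CPM in KO_RL. Trained and untrained mice did not overlap in either genotype. The changes of −0.56, −0.67, −0.60 and −0.46 (log2, SE 0.09 each) in WT_OL, KO_OL, WT_RL and KO_RL had limma adjusted p of 0.00169, 0.000139, 0.000667 and 0.00207, and all 4 were also called after the GC correction.

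*Srsf1*, the founding SR protein known as SF2/ASF, was at 192, 172 and 195 CPM in WT_Basal, 140, 117 and 139 CPM in WT_OL and 140, 123 and 154 CPM in WT_RL. It was at 182, 185 and 208 CPM in KO_Basal, 123, 131 and 129 CPM in KO_OL and 128, 164 and 135 CPM in KO_RL. All trained mice lay below the untrained mice of their genotype. The falls were 0.50, 0.42, 0.58 and 0.44 (SE 0.10 each) in WT_OL, WT_RL, KO_OL and KO_RL, with limma adjusted p of 0.00738, 0.0122, 0.00101 and 0.00675, of which the KO_OL call alone was kept after the GC correction (−0.31, limma adjusted p = 0.0135).

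*Srsf7* and *Srsf6* followed in KO_OL with falls of 0.57 ± 0.08 and 0.54 ± 0.07 (limma adjusted p = 0.000256 and 8.18e-05). *Srsf6* also fell by 0.33, 0.33 and 0.21 in WT_OL, WT_RL and KO_RL. These calls were lost after the GC correction (limma adjusted p = 0.33, 0.14 and 0.596). For *Srsf6*, KO_RL replicate 2 at 98.1 CPM was above KO_Basal replicate 1 at 97.7 CPM. *Srsf12* fell by 0.40 in WT_RL (limma adjusted p = 0.0125). *Srsf3*, whose protein also helps export messenger RNA, fell by 0.29, 0.38, 0.29 and 0.35 (SE 0.07 each) in WT_OL, KO_OL, WT_RL and KO_RL, and none of these 4 calls was kept after the GC correction, where its changes lay between −0.09 and −0.01. *Srsf4* stood at 47.1, 46.9 and 50.2 CPM in KO_Basal and at 62.5, 56.8 and 59.6 CPM in KO_OL, and at 62.4, 55.9 and 58.8 CPM in KO_RL. Every trained KO mouse was above every untrained one. The rises were 0.31 and 0.29 (SE 0.07 each, limma adjusted p = 0.00528 and 0.00718). In WT mice *Srsf4* rose by 0.27 ± 0.07 in WT_RL (limma adjusted p = 0.0162), a call that was lost after the GC correction (limma adjusted p = 0.107).

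Of the 12 snRNP genes, 3 fell in WT_OL and in WT_RL and 5 in KO_OL and in KO_RL, while *Snrpa*, which encodes the U1-A protein, rose in KO_OL and WT_RL. The falls in WT were in *Snrpd1*, *Snrpd3* and *Snrpb2*, and those in KO also included *Snrpe* and *Snrpf*. *Snrpd1*, *Snrpd3*, *Snrpe* and *Snrpf* encode proteins of the Sm ring, and *Snrpb2* the U2-B″ protein of the U2 particle.

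*Snrpd1* was at 55.6, 56.9 and 58.3 CPM in WT_Basal, 40.5, 46.8 and 33.3 CPM in WT_OL and 37.7, 46.5 and 37.7 CPM in WT_RL. In KO mice it was at 69.0, 64.4 and 58.3 CPM untrained, 39.5, 39.3 and 35.8 CPM in KO_OL and 37.9, 32.7 and 37.1 CPM in KO_RL. No trained mouse overlapped with untrained mice of its genotype. The log2 fold changes were −0.50, −0.48, −0.72 and −0.81 (SE 0.11 each) in WT_OL, WT_RL, KO_OL and KO_RL, with limma adjusted p of 0.00948, 0.008, 0.000304 and 0.000127, and those in KO mice were also called after the GC correction (−0.56 and −0.67).

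*Snrpb2* had 28.7, 32.2 and 29.7 CPM in KO_Basal, 20.1, 20.04 and 17.1 CPM in KO_OL and 17.8, 21.1 and 19.0 CPM in KO_RL, without overlap. These falls of 0.63 and 0.62 (SE 0.09, limma adjusted p = 0.000176 and 0.0002) became −0.29 and −0.33 with the GC correction, where the KO_RL call alone was kept (limma adjusted p = 0.0504 and 0.0274). *Snrpd3* fell by 0.42, 0.44, 0.35 and 0.51 (SE 0.06 each) in WT_OL, KO_OL, WT_RL and KO_RL, and all 4 calls were kept after the GC correction, with changes of −0.37, −0.42, −0.33 and −0.50. *Snrpe* fell by 0.51 ± 0.10 in KO_OL (limma adjusted p = 0.00168), a call lost after the GC correction (limma adjusted p = 0.0931). *Snrpa* was at 34.9, 41.3 and 40.0 CPM in WT_Basal and 48.7, 51.6 and 44.6 CPM in WT_RL, without overlap, a rise of 0.31 ± 0.09 (limma adjusted p = 0.0287) that was not called after the GC correction (limma adjusted p = 0.172). Its rise in KO_OL was 0.29 ± 0.09 (limma adjusted p = 0.0306), also lost after the GC correction (limma adjusted p = 0.17).

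SF3 genes went the other way: 5 of 9 rose in KO_OL, 4 in WT_RL and 4 in KO_RL, and 0 were called in WT_OL in limma. *Sf3b6*, which encodes the p14 protein at the branch point, was the one SF3 gene that fell, by 0.39 ± 0.10 in KO_OL and 0.53 ± 0.10 in KO_RL (limma adjusted p = 0.0113 and 0.00166), of which the KO_RL call alone was kept after the GC correction (limma adjusted p = 0.113 and 0.0198). *Sf3a1* and *Sf3a2* encode SF3a subunits that join the U2 particle. *Sf3a1* was at 73.8, 74.8 and 76.9 CPM in KO_Basal, 95.3, 90.5 and 98.7 CPM in KO_OL and 92.7, 92.3 and 92.4 CPM in KO_RL. In WT mice it was at 69.8, 76.8 and 78.8 CPM untrained, 82.2, 74.8 and 88.7 CPM in WT_OL and 92.0, 94.0 and 90.6 CPM in WT_RL. Only WT_OL overlapped with its untrained group. The rises were 0.33 in KO_OL, 0.30 in KO_RL and 0.29 in WT_RL (SE 0.07 each, limma adjusted p = 0.0023, 0.00475 and 0.00768), and all 3 were also called after the GC correction.

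*Sf3a2* was at 22.9, 22.8 and 25.2 CPM in KO_Basal, 30.1, 29.7 and 30.9 CPM in KO_OL and 28.5, 27.1 and 29.7 CPM in KO_RL. In WT it was at 21.5, 23.0 and 23.9 CPM untrained and 27.1, 30.5 and 27.3 CPM in WT_RL. The trained mice of these groups lay above the untrained ones, with rises of 0.34 in KO_OL, 0.26 in KO_RL and 0.30 in WT_RL (SE 0.07 each, limma adjusted p = 0.00358, 0.0185 and 0.013). None of the 3 was called after the GC correction, and *Sf3a2* had the highest GC content of all members, 62.2%.

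*Sf3b4*, an SF3b subunit that contacts RNA near the branch point, showed the largest rise in KO_OL, from 27.3, 27.3 and 29.0 CPM in KO_Basal to 41.1, 35.4 and 40.3 CPM. It was at 35.0, 33.6 and 35.5 CPM in KO_RL, and it went from 27.2, 29.3 and 29.7 CPM in WT_Basal to 36.5, 37.1 and 34.8 CPM in WT_RL. These groups did not overlap with untrained mice. The rises were 0.46, 0.30 and 0.32 (SE 0.09 each, limma adjusted p = 0.00172, 0.0216 and 0.0238), of which the KO_OL rise was also called after the GC correction. Of the 100-base windows of *Sf3b4*, 36.9% occur in 1 other annotated gene, so its counts are less certain.

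*Sf3b3, a large SF3b subunit, was at 91.5, 86.8 and 102 CPM in KO_Basal, 137, 120 and 122 CPM in KO_OL and 119, 120 and 127 CPM in KO_RL, without overlap. The rises of 0.43 and 0.39 (SE 0.12 each, limma adjusted p = 0.0152 and 0.0283) were also called after the GC correction. In WT_OL its values were 96.7, 76.2 and 122 CPM, spread around the 93.1, 102 and 96.7 CPM of WT_Basal. *Sf3b2* rose by 0.23 ± 0.08 in KO_OL and by 0.24 ± 0.08 in WT_RL (limma adjusted p = 0.0372 and 0.0453), calls that were lost after the GC correction.

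*U2af1*, the small U2AF subunit that reads the AG at the end of an intron, was at 48.5, 49.7 and 49.0 CPM in WT_Basal and 39.8, 41.8 and 39.5 CPM in WT_OL. In KO mice it went from 49.5, 50.0 and 51.9 CPM to 39.5, 38.8 and 43.1 CPM in KO_OL and 41.1, 37.7 and 45.2 CPM in KO_RL. All trained mice of these groups were below the untrained ones. The changes were −0.27, −0.31 and −0.29 (SE 0.07 each, limma adjusted p = 0.0261, 0.00586 and 0.0102), and they were −0.37, −0.40 and −0.36 after the GC correction. *U2af1l4* fell by 0.29 ± 0.10 in KO_OL and in KO_RL (limma adjusted p = 0.0481 and 0.0465), but 97.1% of its windows also belong to an annotated readthrough gene, *Gm49396*, and 49.5% of those of *U2af1* occur in other genes. *U2af2* was called in no comparison.

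Markers of the choroid plexus were higher in trained than in untrained KO mice. The sum of 8 markers was 219 to 1117 CPM in KO_Basal, 3580 to 6865 CPM in KO_OL and 2063 to 7562 CPM in KO_RL, with 8 of 8 markers called higher in KO_OL and 7 of 8 in KO_RL, and no marker at 0 in any library. Their part in the results of KO mice was not tested. In WT mice the sums overlapped, with 1417 to 6361 CPM in WT_Basal, 3090 to 4835 CPM in WT_OL and 211 to 12524 CPM in WT_RL, and 0 of 8 markers were called in either trained group. All 8 markers were lower in KO_Basal than in WT_Basal, with a median log2 difference of −2.55 and 0 called. A low level in KO_Basal and a rise with training cannot be told apart.

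Most members called lower after training in 1 genotype were also called lower in the other, as were most of all genes called lower in WT. The 2 genotypes shared no library in this comparison, but the slope on GC content separated trained from untrained libraries in both. Between WT_OL and KO_OL, 15 members were called lower in both, 71.4% of the 21 in WT and 65.2% of the 23 in KO. Over all genes 639 were called lower in both, 74.1% of those in WT and 33.9% of those in KO. The 15 members were *Hnrnpdl*, *Hnrnph1*, *Hnrnph2*, *Hnrnph3*, *Hnrnpr*, *Snrpb2*, *Snrpd1*, *Snrpd3*, *Srsf1*, *Srsf3*, *Srsf5*, *Srsf6*, *Srsf7*, *Srsf12* and *U2af1*. Of these, only *Hnrnpdl*, *Hnrnph1*, *Snrpd3*, *Srsf5* and *U2af1* stayed called in both genotypes after the GC correction. Between WT_RL and KO_RL, 13 were called lower in both (86.7% of 15 and 68.4% of 19), and *Sf3a1*, *Sf3a2*, *Sf3b4* and *Srsf4* were called higher in both (57.1% of 7 and 80% of 5). Over all genes the shares were 74.9% and 46.4% for lower calls and 68.5% and 49% for higher calls. Of the calls shared after reversal learning, the GC correction kept in both genotypes the falls of *Hnrnpa1*, *Hnrnpdl*, *Hnrnpr*, *Snrpd3*, *Srsf5* and *Srsf12*. The only shared rise it kept was that of *Sf3a1*. The sign agreed for 48 of 55 members after original learning and for 50 after reversal learning, which is 87.3% and 90.9%, and for 65.9% and 75.8% of all genes. Pearson's r of the changes over the 55 members was 0.762 and 0.895, and over all genes 0.416 and 0.537, given as a description, since the members share libraries and the slope on GC content.

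**Figure D5:**
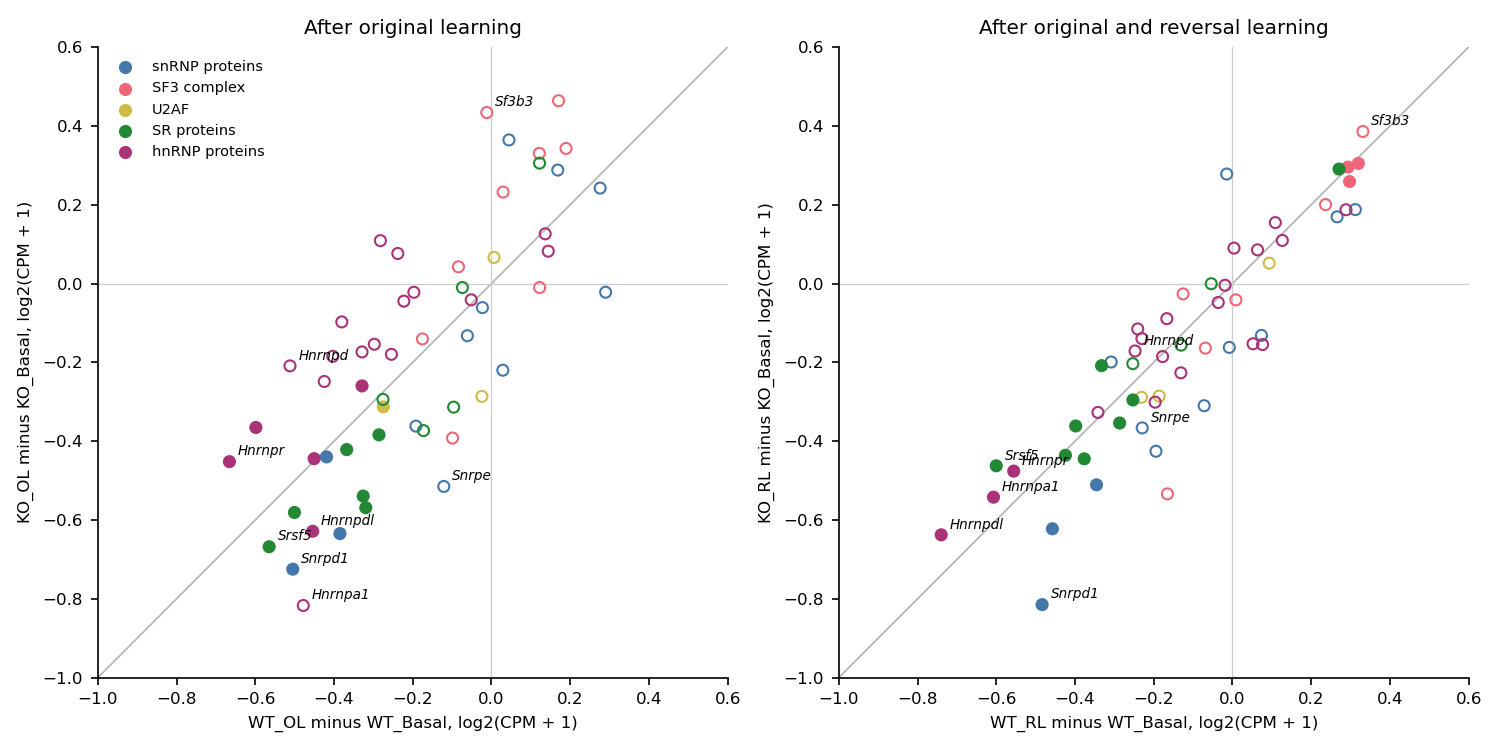
Each point is 1 of the 55 members, with its log2 change from untrained mice in WT on the horizontal axis and in KO on the vertical axis, after original learning (left) and after original and reversal learning (right); colours give the family, filled points were called in both genotypes, and the grey diagonal marks equal change. Most points lie in the lower left or upper right corner, and *Hnrnpr* and *Hnrnpd* lie above the diagonal after original learning.

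No member was called for a difference between the genotypes in its change. For the change from Basal to OL, 5 of 55 members had an unadjusted p under 0.05 in limma, as did 12.4% of all genes. The lowest were *Snrpe*, with a difference (KO minus WT) of −0.39 (95% confidence interval −0.69 to −0.10), *Sf3b3* with 0.45 (0.09 to 0.80) and *Sf3b4* with 0.29 (0.03 to 0.56), at limma adjusted p of 0.388, 0.388 and 0.39. The members that passed in 1 genotype alone, such as *Hnrnpd* and *Hnrnpk* in WT_OL or *Srsf2* and *Sf3a1* in KO_OL, are therefore not shown to respond differently. Without WT_OL replicate 3, 5 members were called for this difference, and the share of all genes called in that fit is not given here. For the change from OL to RL, 10 members had an unadjusted p under 0.05 and 7.98% of all genes did, with the lowest p for *Srsf6* (0.34, 0.13 to 0.54), *Hnrnpc* (−0.31, −0.50 to −0.11) and *Hnrnpdl* (0.28, 0.07 to 0.48) and limma adjusted p of 0.47, 0.475 and 0.581.

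Between original and reversal learning few members moved. In WT mice 2 members were higher in WT_RL than in WT_OL and 0 were lower, when 0.104% and 0.157% of all genes were. *Hnrnpc*, which binds uridine tracts, was at 205, 196 and 215 CPM in WT_OL and at 250, 280 and 246 CPM in WT_RL. *Hnrnph3* was at 33.4, 34.4 and 36.7 CPM in WT_OL and at 41.7, 46.7 and 48.8 CPM in WT_RL. Neither gene overlapped between the groups, and WT_RL was close to the WT_Basal values of 232, 252 and 251 CPM for *Hnrnpc* and 41.8, 43.7 and 46.5 CPM for *Hnrnph3*. The rises were 0.33 ± 0.06 and 0.38 ± 0.07 (log2 ± SE, limma adjusted p = 0.0406 and 0.0446). After the GC correction, where 0.322% of all genes were called, the *Hnrnpc* call was lost and that of *Hnrnph3* kept (limma adjusted p = 0.0923 and 0.0497). The count went to 0 without WT_OL replicate 1, without WT_OL replicate 2 or without WT_RL replicate 2. It went to 1 without WT_RL replicate 3 and to 18 without WT_OL replicate 3, with no share of all genes given for these fits.

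In KO mice 0 members differed between KO_RL and KO_OL in limma, with 2 at an unadjusted p under 0.05 (4.81% of all genes) and 0.0196% of all genes called. *Srsf6* had the lowest p, with 66.8, 71.5 and 72.2 CPM in KO_OL and 80.9, 98.1 and 87.4 CPM in KO_RL. The groups did not overlap, and the difference of 0.33 ± 0.07 had an adjusted p of 0.172 in limma. *Srsf5* (0.21 ± 0.09) and *Hnrnpm* (0.15 ± 0.08) came next, with limma adjusted p of 0.996 and 1.

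In untrained mice no member was detectably different between the genotypes in limma. Between KO_Basal and WT_Basal 0 of 55 members were called and 0 had an unadjusted p under 0.05, against 0.0196% and 4% of all genes. The differences ran from −0.10 to 0.20, with a median SE of 0.09, and the 95% confidence intervals of all members lay between −0.40 and 0.55. *Snrpe* had the lowest p, with 19.7, 18.6 and 20.4 CPM in WT_Basal and 21.7, 22.9 and 23.2 CPM in KO_Basal, a difference of 0.20 (95% confidence interval −0.01 to 0.41, limma adjusted p = 0.994). *Snrpf* (0.18, −0.02 to 0.39) and *Hnrnph3* (0.14, −0.02 to 0.30) came next, both with a limma adjusted p of 0.994. So these data allow differences of about this size and do not show that the genotypes are alike.

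After original learning 0 members were called between KO_OL and WT_OL, where 0.0652% of all genes were, and 14 members had an unadjusted p under 0.05 (18% of all genes). *Sf3b3* (0.39, 95% confidence interval 0.13 to 0.64), *Sf3a1* (0.21, 0.07 to 0.35) and *Srsf6* (−0.20, −0.34 to −0.05) had the lowest p, with limma adjusted p of 0.165, 0.169 and 0.193. Without WT_OL replicate 3 the count of called members was 17, and the share of all genes called in that fit is not given here. After reversal learning 0 members were called between KO_RL and WT_RL, as were 0% of all genes, and 2 had an unadjusted p under 0.05 (4.93% of all genes). *Hnrnpc* (−0.17, −0.31 to −0.04), *Hnrnpdl* (0.16, 0.02 to 0.31) and *Srsf6* (0.14, −0.00 to 0.29) had the lowest p, with limma adjusted p of 0.864, 0.956 and 0.986.

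Over the 18 libraries the widest range of log2 values among members with a mean of at least 3 was that of *Hnrnpd* with 1.11, from WT_OL replicate 2 to KO_Basal replicate 3. *Hnrnph2* followed with 1.08, between the same libraries, and *Snrpd1* with 1.05, from KO_RL replicate 2 to KO_Basal replicate 1. The steadiest were *Hnrnpf* with a range of 0.22, *Srsf9* with 0.28 and *U2af2* with 0.28. *Hnrnpf* is among the 9 of 55 members with over 20% of their 100-base windows in another annotated gene (43.5%), and 28 members had no such window. The others over 20% are *U2af1l4*, *U2af1*, *Hnrnpa1*, *Sf3b4*, *Hnrnpm*, *Hnrnpa3*, *Hnrnpk* and *Srsf3*.

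In the deposited values *Srsf5*, *Srsf6* and *Hnrnpr* were called lower in all 4 trained groups. So were *Hnrnpdl*, *Snrpb2*, *Snrpd1*, *Snrpd3*, *Srsf1*, *Srsf3*, *Srsf7* and *Srsf12*. *Sf3a1* was called higher in 3 of these groups, as were *Sf3a2*, *Sf3b4* and *Srsf4*. After the GC correction *Srsf6* stayed called in KO_OL alone and *Hnrnpr* in all but KO_OL. Promoters of 4 members, *Srsf5*, *Srsf6*, *Hnrnpr* and *Sf3a1*, which differ in direction, are shown as examples. Each is the 200 bases before the RefSeq start of the gene on GRCm38.p6, read on the strand of the gene, at chr12:80945299-80945498 (+) for *Srsf5*, chr2:162931308-162931507 (+) for *Srsf6*, chr4:136310742-136310941 (+) for *Hnrnpr* and chr11:4160154-4160353 (+) for *Sf3a1*. Capitals mark matches, on either strand, to the CRE core TGACG, the ETS site CCGGAAGT, the CCAAT box or the SP site GGGCGG, and matches that touch or overlap run together.
Srsf5: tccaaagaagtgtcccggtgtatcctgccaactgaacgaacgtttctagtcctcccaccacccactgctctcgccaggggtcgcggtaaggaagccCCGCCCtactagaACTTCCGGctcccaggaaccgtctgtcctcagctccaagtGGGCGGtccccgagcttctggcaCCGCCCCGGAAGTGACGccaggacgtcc
Srsf6: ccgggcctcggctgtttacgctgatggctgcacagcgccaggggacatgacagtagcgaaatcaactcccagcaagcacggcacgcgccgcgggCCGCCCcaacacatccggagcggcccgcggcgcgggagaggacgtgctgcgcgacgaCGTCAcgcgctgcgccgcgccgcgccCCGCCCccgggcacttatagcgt
Hnrnpr: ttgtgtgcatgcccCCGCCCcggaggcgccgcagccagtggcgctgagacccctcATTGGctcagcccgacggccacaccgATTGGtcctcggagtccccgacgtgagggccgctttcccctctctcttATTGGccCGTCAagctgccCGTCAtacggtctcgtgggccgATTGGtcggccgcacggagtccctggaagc
Sf3a1: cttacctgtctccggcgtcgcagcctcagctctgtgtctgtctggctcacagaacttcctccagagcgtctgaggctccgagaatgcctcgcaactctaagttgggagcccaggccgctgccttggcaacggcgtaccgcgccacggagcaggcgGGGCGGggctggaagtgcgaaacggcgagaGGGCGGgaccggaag

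**Srsf5* holds 2 ETS matches, the second of which overlaps a CRE core, and 3 SP matches. *Srsf6* holds 1 CRE core and 2 SP matches, *Hnrnpr* 4 CCAAT boxes, 2 CRE cores and 1 SP match, and *Sf3a1* 2 SP matches, so all 4 promoters hold the SP letters. Of the 48 members with a promoter in the RefSeq table, 33.3% held the CRE core, 41.7% a CCAAT box, 10.4% an ETS site and 58.3% an SP site. Over all 11568 promoters of the same length the shares were 23.5%, 32.1%, 5.08% and 55.9%. The full CRE, TGACGTCA, was in 4.17% of member promoters and 2.65% of all, the TATA box TATAAA in 8.33% and 4.68%, the EGR site GCGGGGGCG in 6.25% and 4.45%, and the NRF1 site in 0% and 1.44%. The CRE core also counts the full CRE. These matches describe letters and are not sites at which a factor was measured.

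Other genes of the splicing machinery were taken from lists of known proteins, and their counts stand against 5.62% lower and 3.88% higher over all genes in WT_OL, 7.42% and 8.28% in WT_RL, 12.3% and 11.2% in KO_OL, and 12% and 11.6% in KO_RL. Changes of the genes in this and the following lists are from the deposited values and were not examined after the GC correction. Of 63 other spliceosome proteins, 8 fell and 0 rose in WT_OL, 12 fell and 10 rose in KO_OL, 8 fell and 11 rose in WT_RL, and 14 fell and 10 rose in KO_RL. *Rnpc3*, a protein of the minor spliceosome, fell by 1.14 ± 0.20 in KO_OL, 0.86 ± 0.20 in WT_RL and 0.74 ± 0.20 in KO_RL (limma adjusted p = 0.000938, 0.00994 and 0.0151). *Lsm8*, of the ring on U6 RNA, led the falls in WT_OL with −0.58 ± 0.09 (limma adjusted p = 0.00157). The helicase gene *Dhx8* rose by 0.45, 0.46 and 0.46 (SE 0.12 each) in KO_OL, WT_RL and KO_RL, and *Prpf8*, the scaffold of the catalytic core, by 0.39 and 0.48 (SE 0.13 each) in KO_OL and KO_RL, with limma adjusted p between 0.0129 and 0.0444. The list's median change was −0.06, −0.10, −0.04 and −0.08 in WT_OL, KO_OL, WT_RL and KO_RL, nearer to 0 than that of the members.

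Of 30 tissue-specific splicing regulators, 7 fell and 1 rose in WT_OL, 7 and 3 in WT_RL, 8 and 3 in KO_OL, and 7 and 4 in KO_RL. *Nova2*, a neuronal regulator of alternative exons, rose by 0.50, 1.01, 0.57 and 0.87 (SE 0.15 each, limma adjusted p = 0.044, 0.000225, 0.0166 and 0.000708) in WT_OL, KO_OL, WT_RL and KO_RL. *Elavl4*, which encodes the neuronal HuD protein, fell by 0.53, 0.58, 0.52 and 0.65 (SE 0.15 each) in the same groups, and *Ptbp2*, the neuronal polypyrimidine tract protein, by 0.46, 0.47, 0.48 and 0.47 (SE 0.11 each). Of 9 SR protein kinases, which phosphorylate SR proteins, 0 were called in WT_OL and WT_RL, 2 in KO_OL (23.5% of all genes) and 4 in KO_RL (23.6% of all genes) by limma, and 0 for a genotype difference in the change from Basal to OL. *Srpk3* and *Clk4* fell in KO_OL by 0.60 ± 0.16 and 0.41 ± 0.14 and in KO_RL by 0.49 ± 0.16 and 0.41 ± 0.14, and *Srpk1* and *Dyrk1a* rose in KO_RL by 0.21 ± 0.07 and 0.32 ± 0.11 (limma adjusted p between 0.0109 and 0.0449).

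Of 33 other abundant RNA-binding proteins, 12 fell and 0 rose in WT_OL, 9 and 2 in WT_RL, 14 and 2 in KO_OL, and 10 and 2 in KO_RL. Their median change was −0.18, −0.14, −0.14 and −0.10 in WT_OL, KO_OL, WT_RL and KO_RL. That of the members was −0.20, −0.18, −0.13 and −0.16, so falls of this size were not particular to the members. The cold-inducible *Rbm3* fell by 0.45, 0.67, 1.13 and 0.92 (SE 0.13 each) in WT_OL, KO_OL, WT_RL and KO_RL (limma adjusted p = 0.0448, 0.00234, 0.000111 and 0.000231), and it was lower in WT_RL than in WT_OL by 0.67 ± 0.13 (limma adjusted p = 0.0465). *Cirbp*, its cold-inducible relative, fell by 0.39, 0.68 and 0.60 (SE 0.11 each) in KO_OL, WT_RL and KO_RL (limma adjusted p = 0.0193, 0.00122 and 0.00148). *Acin1*, a protein of the exon junction, rose by 0.30, 0.31 and 0.36 (SE 0.08 each) in KO_OL, WT_RL and KO_RL. Of 6 nuclear noncoding RNAs, 0 were called in WT_OL by limma, 2 fell in WT_RL, 5 in KO_OL and 1 in KO_RL. *Malat1*, which gathers at nuclear speckles with SR proteins, fell by 1.25 ± 0.26 in KO_OL and 0.83 ± 0.26 in WT_RL (limma adjusted p = 0.00299 and 0.0397), and *Rian*, from an imprinted locus, by 0.71 in KO_OL, 0.58 in WT_RL and 0.65 in KO_RL (SE 0.10 each, limma adjusted p = 0.00021, 0.00166 and 0.000431).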

How the data were processed

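Per the labels and the methods of the study, the authors made TruSeq libraries, used STAR v2.5.1 for the alignment of 1 library per mouse against mm10, and edgeR v3.12.1 to scale the counts by TMM. The deposited values are log2 of TMM-normalized CPM + 1 per gene and library: 2 to the value minus 1 was a whole multiple of 1 read's worth (0.0274 to 0.0333 CPM) for 100% of values, within 0.01 of a read. The methods describe a floor of CPM at 1, which the values do not show. Counting error is small at these depths for most members. It is larger for *Hnrnpa1*, with 37 reads in its lowest library, and for *Snrpn*, which is also at a low level. Error is given over 3 mice per group, as SE of the fit.

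The log2 values of all 15329 genes were fitted with limma 3.58.1 in R 4.3.3, with 1 mean for each of 6 groups, a variance trend and 12 residual degrees of freedom, in 11 two-sided comparisons with Benjamini-Hochberg adjustment. The methods of the study select genes past 1.5-fold at a p under 0.05, a rule whose counts are given beside the calls. A gene was called at an adjusted p under 0.05. The fit was tested on simulated data. Nothing says that mice of a group were from separate litters, so p-values measure the spread between these libraries.

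GC content, length and positions come from GENCODE M21 (GRCm38, the build called mm10), with the longest coding transcript of a gene. Promoters are from RefSeq. The GC correction took a lowess curve (span 0.3) from each library, which also removes any change in the animals that follows GC content. Shared 100-base windows were sought in all annotated transcripts.

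Named members are all those called in a comparison or, beyond 20, the 8 largest falls and rises, with values per mouse for the largest 4 each way; with none called, the 3 of lowest p; the highest and lowest level per kb of each family; and the 3 widest and narrowest ranges. Other members named were chosen after their values were seen. The members and gene lists were chosen with earlier results of these data known. Alternatives were the GC correction, quantile normalization, a pseudocount of 0.5, CPM floored at 1, a filter at a mean log2 of 1, voom on the recovered reads, library weights (statmod 1.5.0), only the groups compared, a replicate block and each library left out. Tables and plots were made in Python 3.11.15 (matplotlib 3.10.9, pandas 2.3.3, numpy 2.4.6).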

Additional observations from a re-analysis of the deposited data

How the results depend on the processing

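No member changed the direction of a call under any alternative run. For WT_OL against WT_Basal, the 21 members called became 7 with the GC correction (8 when WT_OL replicate 2 was also left out), 36 with library weights, 0 when the 2 groups were fitted alone, and 12 to 28 with 1 library left out (12 without WT_Basal replicate 3). For WT_RL against WT_Basal, 22 became 10 with the GC correction and 10 to 20 with 1 library left out (10 without WT_Basal replicate 1, 12 without WT_Basal replicate 3, 13 without WT_RL replicate 2). For KO_RL against KO_Basal, 24 became 40 with library weights and 16 to 20 with 1 library left out; for KO_OL against KO_Basal, 30 became 23 to 27. For WT_RL against WT_OL, 2 became 1 with quantile normalization, the GC correction or voom, 7 with library weights, 0 with the groups fitted alone or without WT_OL replicate 2 and KO_OL replicate 1 together, 0 with the GC correction without WT_OL replicate 2, and 0 to 18 with 1 library left out. With library weights, 1 member was called for KO_RL against KO_OL, 27 for KO_OL against WT_OL and 9 for the genotype difference in the change from Basal to OL. With 1 library left out, those last 2 gave 0 to 17 and 0 to 5. Library weights put 7.03 on WT_OL replicate 1 and 0.208 on WT_OL replicate 2. The shares of all genes called with library weights or with a library left out are not given here. Counts under these settings therefore describe the members alone. The weights estimated gene by gene, leaving out the 2 libraries together and the GC correction without WT_OL replicate 2 were chosen after seeing the data.

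Of 99 calls on single members, 49 were lost with the GC correction, 31 with only the groups compared, 7 with quantile normalization, 4 with voom, 3 with CPM floored at 1, and 0 with a pseudocount of 0.5, the filter on low values or library weights. The replicate numbers gave no consistent sign of pairing: for 45 pairs of libraries with the same number, the correlation of deviations ran from −0.60 to 0.51, with a median of −0.03. With the replicate number as a block, 22, 31, 22 and 25 members were called in WT_OL, KO_OL, WT_RL and KO_RL against untrained mice, and 1 of the 99 calls was lost. The cause of these differences was not tested. Depth was no limit for most members, since only *Hnrnpa1* and *Snrpn* averaged under 10 CPM.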
